A study of Bos taurus with 21 samples.

Results

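Thyroid hormone and glucocorticoids act on foetal tissues through a small set of genes that were followed here in the muscle of cattle foetuses. They were THRA and NR3C1, the receptors for thyroid hormone and for glucocorticoids, the deiodinases DIO2 and DIO3, the cortisol-converting enzymes HSD11B1 and HSD11B2, and the receptor co-chaperone FKBP5. A probe was counted as a member where its RefSeq transcript belongs to 1 of these genes in the cattle annotation. This gave 17 of the 43653 non-control probes, and 7 of the 12538 genes that had a named probe. The matching rule uses no measured value, but the 7 genes were proposed with earlier results of these data known.

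RNA was measured from the muscle of 21 foetuses, 1 array per foetus, on single-colour bovine arrays. Blonde d'Aquitaine (BA) is a beef breed with heavy muscling in which a myostatin (MSTN) mutation is common, and Charolais (CH) is the beef breed it was compared with. Foetuses of both breeds came from artificial insemination of primiparous cows of their own breed and received no treatment. They were collected at 110, 180, 210 and 260 days post-conception (dpc), stages the study chose to span myoblast proliferation, its end, fibre differentiation and the period close to birth. At these 4 stages in turn, BA was represented by 3, 2, 3 and 2 foetuses, and CH by 2, 3, 3 and 3. Both BA foetuses at 180 dpc, both at 260 dpc and both CH foetuses at 110 dpc were female, and the other groups held both sexes. Each breed had 2 sires, and the groups BA 180, BA 260 and CH 210 had 1 each. The BA foetuses had not been genotyped for MSTN. The sample labels name Longissimus thoracis and the methods name Semitendinosus as the muscle sampled.

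Thyroid hormone reaches tissues mainly as the prohormone T4. DIO2 converts it inside the cell to the active T3, DIO3 inactivates both, and T3 then acts through receptors such as THRA to favour the switch from foetal to adult myosins and a rise in metabolic rate. Cortisol binds NR3C1, HSD11B1 regenerates it from inactive cortisone, and HSD11B2 does the reverse. FKBP5 holds the receptor in a state of low affinity for the hormone and is itself a classical target of glucocorticoids. In ruminants both hormones rise in the foetal circulation before birth, when they drive the maturation of many organs. Hormone levels were not measured in these samples.

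All values are log2 intensities scaled to the 75th percentile of each array, set so that 0 is the level of the median probe of a typical array. Differences are log2 differences, and 1 unit is a factor of 2. The levels of different probes are not comparable with each other. The 75th percentile lay between 524.9 and 1173.5 intensity units, and 29017 to 34501 probes per array were well above background, which is the scanner software's own call. With 2 or 3 arrays a group, the number of arrays limits the precision. Of the 6 slides, a single one held arrays of both 110 and 260 dpc, from different breeds. Slide and stage can therefore be told apart only in part. Tests were made with limma over all probes, and adjusted p is by Benjamini-Hochberg. The tissue read as skeletal muscle, since all 8 skeletal muscle markers examined were well above background on all 21 arrays. These markers cannot tell which of the 2 named muscles was sampled. In whole muscle, fewer cells of a type and less RNA per cell cannot be told apart.

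Between 110 and 260 dpc, 5 of the 7 genes passed the test in the mean of both breeds. THRA, NR3C1, DIO2 and HSD11B1 were higher at 260 dpc and FKBP5 was lower. DIO3 and HSD11B2 did not pass. Among all 12537 genes tested by their brightest probe, 51% passed in this comparison, 25% higher and 26% lower, so 5 of 7 is read against a majority of all genes. The largest member difference was that of HSD11B1, and the plot of member values shows each array.

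**Figure D1:**
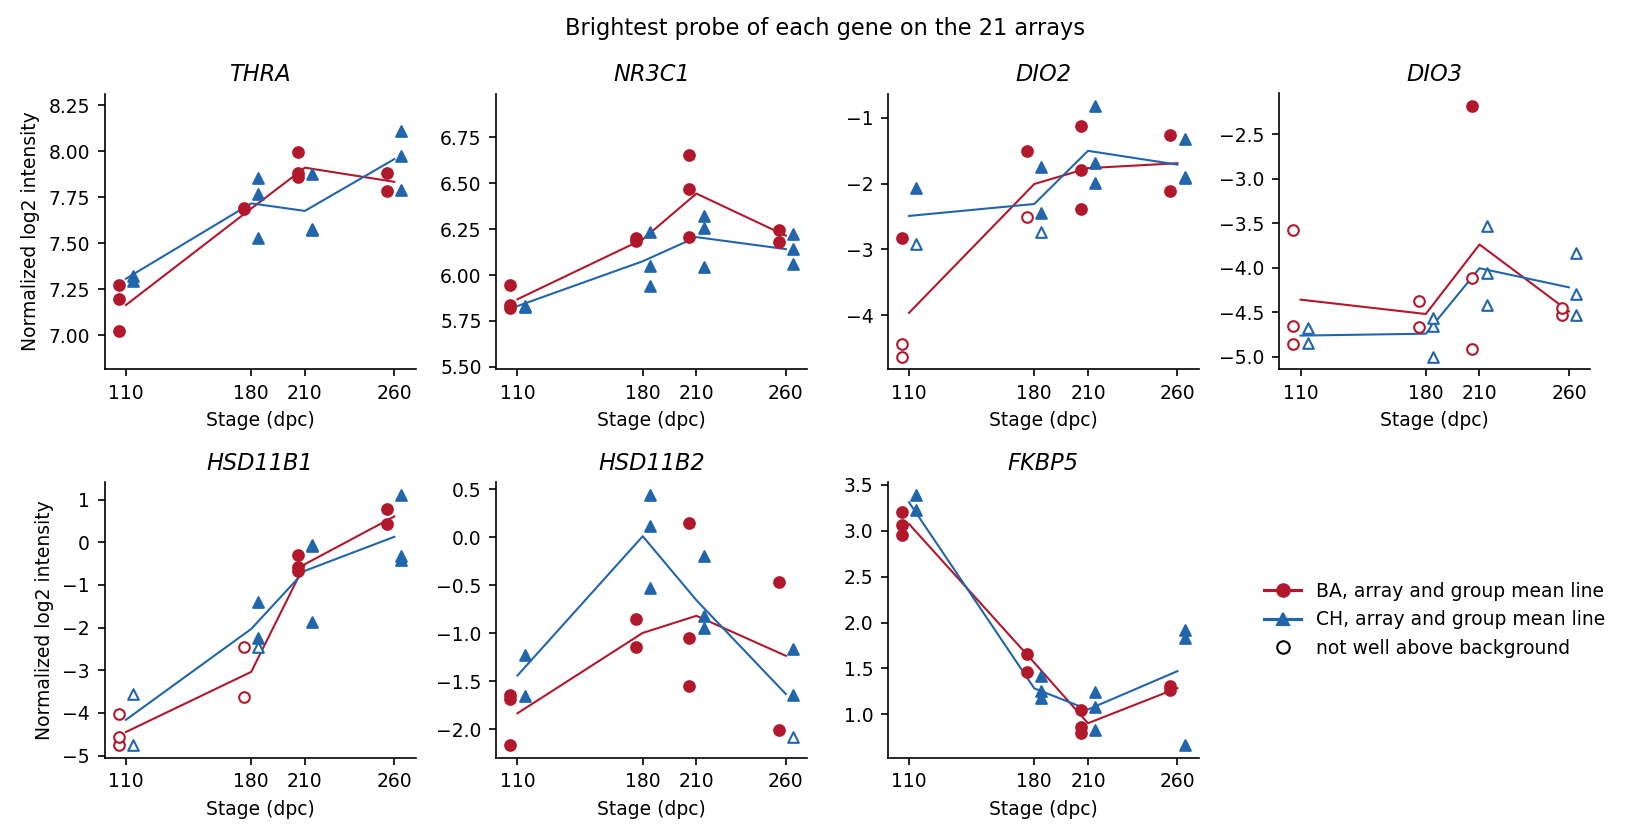
Normalized log2 intensity of the brightest probe of each of the 7 genes (vertical axis, a separate scale for each gene) against stage in days post-conception (horizontal axis), with BA arrays as circles, CH arrays as triangles, lines through the group means and open symbols where the probe was not well above background. HSD11B1 goes from open symbols on all 5 arrays at 110 dpc to 0.32 on average at 260 dpc, FKBP5 falls from 3.17 to 0.98 by 210 dpc, and DIO3 is open on 20 of 21 arrays.

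The receptors changed little. THRA encodes the alpha receptor of thyroid hormone, the main form in skeletal muscle. On its brightest probe, the BA arrays read 7.02, 7.27 and 7.20 at 110 dpc, 7.69 and 7.69 at 180 dpc, 7.99, 7.86 and 7.88 at 210 dpc, and 7.78 and 7.88 at 260 dpc. The CH arrays read 7.32 and 7.29, then 7.77, 7.85 and 7.53, then 7.57, 7.88 and 7.58, and at 260 dpc 7.79, 8.11 and 7.97. All 5 arrays at 110 dpc lay below all 16 later arrays, and those of the later stages overlapped. The difference from 110 to 260 dpc was 0.66 ± 0.10 (SE), or 1.58-fold, with an adjusted p of 4.3e-05, and most of it was reached by 180 dpc (0.47 ± 0.10, adjusted p = 0.0047), a step that did not pass on the arrays of the second scan day alone (0.46, adjusted p = 0.20). The second THRA probe differed by 0.53 between 110 and 260 dpc (adjusted p = 0.0031) but by 0.13 between 110 and 180 dpc (adjusted p = 0.60).

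NR3C1, the glucocorticoid receptor, is a ligand-activated transcription factor present in nearly all cells. Its brightest probe read 5.84, 5.82 and 5.94 in BA and 5.83 and 5.83 in CH at 110 dpc, and 6.25 and 6.18 in BA and 6.06, 6.22 and 6.14 in CH at 260 dpc. The arrays of these 2 stages did not overlap, and the spread within 110 dpc was small (SD 0.05, n = 5). The difference was 0.33 ± 0.10 (SE), or 1.25-fold, with an adjusted p of 0.012, and did not pass in female foetuses alone (0.35, adjusted p = 0.052). The mean was highest at 210 dpc (6.32 ± 0.21, SD, n = 6), where BA read 6.47, 6.65 and 6.21 and CH 6.32, 6.26 and 6.04, after 6.20 and 6.18 in BA and 6.05, 6.23 and 5.94 in CH at 180 dpc, but neither step that leads there passed on this probe (0.28, adjusted p = 0.068, and 0.19, adjusted p = 0.33). The first of them passed in 5 alternatives, among them another NR3C1 probe (0.40, adjusted p = 0.0052) and both filters on low signals (adjusted p = 0.029 and 0.040). Of the 3 other NR3C1 probes, a pair differed by 0.38 each between 110 and 260 dpc (adjusted p = 0.0017 and 0.015), and the remaining probe by 0.16 (adjusted p = 0.44).

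Both receptor differences were small and depended on how arrays were scaled. The 75th percentile used for scaling was lower on every array at 260 dpc than on any array at 110 dpc. With quantile normalization, THRA differed by 0.10 (adjusted p = 0.34) and NR3C1 by 0.07 (adjusted p = 0.64) between 110 and 260 dpc, neither of which passed. In the authors' value table, which is not scaled between arrays, THRA differed by 0.27 (adjusted p = 0.27) and NR3C1 by -0.06 (adjusted p = 0.84), while the median of all probes in that table was itself at -0.37. Taken relative to that median the values were 0.64 and 0.31, against 0.57 and 0.23 relative to the median of 0.09 on the main scale. These medians are over unlike sets, 26225 probes in that table and 43653 on the main scale. Relative to the median of their own setting, THRA and NR3C1 were at 0.085 and 0.047 by quantile normalization. With normexp correction they were at 0.36 and 0.059.

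Of the deiodinases, DIO2 was higher on average at 260 than at 110 dpc, with overlapping arrays and no rise from 210 to 260 dpc. In BA it read -4.63, -4.43 and -2.83 at 110 dpc, -1.51 and -2.51 at 180 dpc, -2.38, -1.79 and -1.13 at 210 dpc, and -2.12 and -1.27 at 260 dpc. In CH it read -2.92 and -2.07, then -2.74, -2.44 and -1.75, then -2.00, -1.69 and -0.82, and at 260 dpc -1.33, -1.91 and -1.90. The probe was well above background on 2 of 5 arrays at 110 dpc, on 3 of 5 at 180 dpc and on all 11 later ones. The difference from 110 to 260 dpc was 1.53 ± 0.39 (SE), with an adjusted p of 0.0047. It rested in part on dim arrays, and with these set at their detection level it was 0.83 (adjusted p = 0.031). With normexp correction it was 0.61 (adjusted p = 0.0011). It did not pass with the slide of 4 arrays as a block (0.86, adjusted p = 0.28), where slide and stage largely coincide. On the arrays of the second scan day alone it was 1.71. No single step between neighbouring stages passed (1.07, 0.52 and -0.07, adjusted p = 0.091, 0.56 and 0.92). The first of these passed in 4 alternatives, by quantile normalization (1.08, adjusted p = 0.038), with sex as a covariate (1.19, adjusted p = 0.035), with a replicate block (1.07, adjusted p = 0.038) and without BA 110 replicate 3 (1.35, adjusted p = 0.017), but was 0.44 with dim arrays at their detection level (adjusted p = 0.44). The other DIO2 probe stayed at background on all 21 arrays.

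DIO3, which inactivates T4 and T3 and is typical of foetal and placental tissue, was near background throughout. Its only probe was well above background on 1 of 21 arrays, BA replicate 3 at 210 dpc, where it read -2.19. The other 20 arrays lay between -5.00 and -3.53. No fold is given for it, since no group was well above background on all its arrays.

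HSD11B1 showed the largest change among the members. Its brightest probe read -4.76, -4.57 and -4.01 in BA and -3.57 and -4.75 in CH at 110 dpc, and was not well above background on any of these arrays. At 180 dpc it read -2.45 and -3.63 in BA, still not well above background, and -1.40, -2.24 and -2.45 in CH, where 2 of 3 arrays were. At 210 dpc the arrays read -0.29, -0.57 and -0.68 in BA and -0.07, -1.86 and -0.08 in CH.

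At 260 dpc HSD11B1 read 0.78 and 0.42 in BA and -0.33, -0.41 and 1.12 in CH. The lowest array at 260 dpc lay above the highest at 180 dpc in each breed, and the arrays of 210 and 260 dpc overlapped in CH. Because the probe was dim at 110 dpc, the change is a bound: in BA the level at 260 dpc was at least 10.4-fold that at 110 dpc, and in CH it was at least 7.14-fold, with dim arrays set at their detection level. These bounds compare group means, carry no interval and hold only for this scale and this detection level. The fitted difference in the mean of both breeds was 4.67 ± 0.41 (SE), with an adjusted p of 1.8e-07, and 3.11 with dim arrays at their detection level (adjusted p = 1.4e-06). With normexp correction and its offset of 50 it was 1.805 (adjusted p = 6.9e-08), so its size depended on the background correction.

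The step of HSD11B1 from 110 to 180 dpc passed (1.77, adjusted p = 0.0095) on readings of which 8 of 10 were at background, so its size is not known. With dim arrays at their detection level it was 0.51 and did not pass (adjusted p = 0.45), nor did it with normexp correction (0.32, adjusted p = 0.31), and the only bound was at least 1.60-fold in CH. From 180 to 210 dpc the difference was 1.94 (adjusted p = 0.013), or 1.64 with dim arrays at their detection level (adjusted p = 0.010). From 210 to 260 dpc, where all arrays were well above background, it was 0.96 and did not pass (adjusted p = 0.094). This last step passed in 3 of 36 alternatives. They were normexp correction (0.64, adjusted p = 0.0082), dim arrays at their detection level (0.96, adjusted p = 0.048) and a replicate block (1.03, adjusted p = 0.037). On the second probe it was 0.98 (adjusted p = 0.052). The first step was also lost when BA 180 replicate 1 (1.47, adjusted p = 0.063) or CH 110 replicate 2 (1.47, adjusted p = 0.058) was left out, and the next step when BA 180 replicate 2 was left out (1.65, adjusted p = 0.077). Neither passed on the second scan day alone (1.13 and 1.82, adjusted p = 0.23 for each). The second HSD11B1 probe differed by 4.28 between 110 and 260 dpc (adjusted p = 1.3e-07), with bounds of at least 7.32-fold for BA and at least 4.88-fold for CH.

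HSD11B1 is also expressed in adipose tissue and liver, so the levels of other cell types were set beside it. The summed intensity of the 7 adipocyte markers measured, in units of each array's 75th percentile, was 2.15 to 3.15 at 110 dpc, 2.14 to 5.13 at 180 dpc, 3.59 to 4.93 at 210 dpc and 8.13 to 14.5 at 260 dpc. Of these markers 3 were higher at 260 than at 110 dpc and 1 was lower. LPL, the lipoprotein lipase that muscle fibres also express, differed by 3.97 (adjusted p = 2.1e-10), CIDEC, a lipid droplet protein, by 2.97 (adjusted p = 0.031), and PPARG, the adipocyte transcription factor, by 0.61 (adjusted p = 0.0038), while CIDEA fell by 0.89 (adjusted p = 2.0e-04). FABP4, the adipocyte fatty acid carrier, differed by 1.42 (adjusted p = 0.23), PLIN1 by 0.43 (adjusted p = 0.18), and LEP was well above background on 3 arrays. Their part in the HSD11B1 result was not tested.

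HSD11B2, the enzyme that inactivates cortisol and protects foetal tissues from it, followed another course. It read -1.69, -2.17 and -1.65 in BA and -1.23 and -1.65 in CH at 110 dpc, and -0.85 and -1.15 in BA and 0.44, -0.53 and 0.12 in CH at 180 dpc. These 2 stages did not overlap. At 210 dpc it read -1.56, 0.15 and -1.06 in BA and -0.95, -0.83 and -0.20 in CH. At 260 dpc it was at -0.46 and -2.01 in BA and at -1.65, -2.09 and -1.17 in CH, so that 2 of the 5 arrays lay above the range of 110 dpc.

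The rise of HSD11B2 from 110 to 180 dpc was 1.15 ± 0.35 (SE), or 2.21-fold, with an adjusted p of 0.041. It was a marginal call that did not pass in 17 of 35 alternative settings, in which the difference was 0.90 to 1.29. From 110 to 260 dpc it differed by 0.20 ± 0.35 (adjusted p = 0.67), with a 95% interval from -0.54 to 0.95, and from 210 to 260 dpc by -0.70 ± 0.33 (adjusted p = 0.15). With BA 260 replicate 1 left out, the last difference became -1.09 and passed (adjusted p = 0.034). The second HSD11B2 probe was well above background on 3 arrays only, 2 of CH at 180 dpc and 1 of CH at 210 dpc.

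FKBP5 was the 1 member that fell. On its brightest probe it read 2.95, 3.20 and 3.06 in BA and 3.39 and 3.22 in CH at 110 dpc, then 1.66 and 1.46 in BA and 1.25, 1.42 and 1.18 in CH at 180 dpc. At 210 dpc it read 1.05, 0.87 and 0.79 in BA and 0.83, 1.25 and 1.08 in CH, and at 260 dpc 1.31 and 1.27 in BA and 0.66, 1.91 and 1.83 in CH. Every array at 110 dpc lay above every later array. The fall from 110 to 180 dpc was 1.77 on the log2 scale, or 3.40-fold, with an adjusted p of 2.0e-05, and that from 110 to 260 dpc was a factor of 3.51 (log2 difference -1.81 ± 0.19, adjusted p = 1.2e-06).

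The last step of FKBP5 went the other way, with a difference of 0.40 ± 0.18 from 210 to 260 dpc that did not pass (adjusted p = 0.13). The call depended on CH replicate 1 at 260 dpc. Without this array the difference was 0.60 and passed in limma (adjusted p = 5.5e-04). That from 180 to 210 dpc, -0.44, then passed as well (adjusted p = 0.020 against 0.23). The step from 210 to 260 dpc was 0.66 in female foetuses alone and -0.011 in the authors' table. On a probe at background on all arrays at 210 dpc it was 1.415 (limma adjusted p = 0.018). A second probe read on all arrays differed by -1.74 between 110 and 260 dpc (adjusted p = 1.5e-06). Another probe, well above background on all 5 arrays at 110 dpc and on 2 later ones, differed by -1.65 (adjusted p = 0.0049), and the remaining one was detected on 2 arrays.

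**Figure D2:**
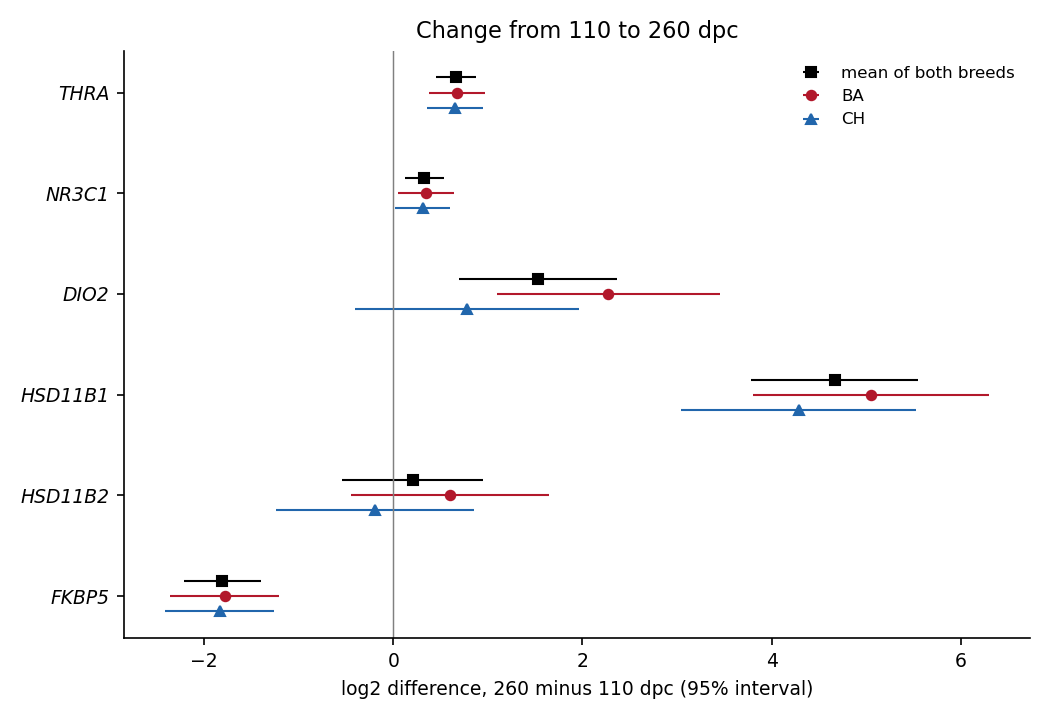
Log2 difference between 260 and 110 dpc (horizontal axis) for the brightest probe of 6 genes, in the mean of both breeds, in BA and in CH, with 95% intervals from limma that are not adjusted for the number of probes. HSD11B1 lies farthest from 0 at 4.67, with all its arrays at 110 dpc at background, FKBP5 is on the other side at -1.81, and the intervals of BA and CH overlap for every gene shown, while DIO3 is left out because it was near background.

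Stage by stage, the number of members that passed differed. From 110 to 180 dpc 4 of 7 genes passed (THRA, HSD11B1 and HSD11B2 higher, FKBP5 lower), of which HSD11B1 did not with dim arrays at their detection level, against 16.7% of all genes, 8.6% higher and 8.14% lower. From 180 to 210 dpc only HSD11B1 passed, against 4.54% of all genes, 2.22% higher and 2.32% lower. From 210 to 260 dpc none of the 7 passed in the limma test, with 2 at an unadjusted p under 0.05 (HSD11B1 and FKBP5), against 30.5% of all genes, 15.2% higher and 15.3% lower. In that last step quantile normalization called 2 receptors lower at 260 dpc, THRA (-0.30, adjusted p = 0.011) and NR3C1 (-0.36, adjusted p = 0.010), and NR3C1 was also lower in the authors' table (-0.56, adjusted p = 0.048).

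The change from 110 to 260 dpc was then read within each breed. In BA, 4 of 7 genes passed, against 39.7% of all genes, and in CH 3 of 7, against 39.2%. THRA differed by 0.67 in BA and 0.65 in CH, and FKBP5 by -1.79 and -1.84, and all of these passed. HSD11B1 passed in both, with the bounds given above, and with dim arrays at their detection level differed by 3.38 in BA and 2.84 in CH (adjusted p = 5.0e-05 and 2.7e-04). DIO2 passed in BA (2.27, adjusted p = 0.0047) with 2 of 3 arrays at 110 dpc at background, and not in CH (0.78, adjusted p = 0.32). With dim arrays at their detection level the values were 0.97 and 0.69, and neither passed (adjusted p = 0.089 and 0.25). On the main scale the difference between the breeds in this change was 1.49, with a 95% interval from -0.18 to 3.17 and an adjusted p of 0.95. NR3C1 passed in neither breed alone (0.35, adjusted p = 0.067, and 0.31, adjusted p = 0.10).

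No member passed the test between BA and CH. In the mean of the 4 stages, none of the 7 genes passed in limma and none reached an unadjusted p under 0.05 on its brightest probe, and 0.0718% of all genes passed. Among the other probes, 2 of NR3C1 (0.13 and 0.18, adjusted p = 0.52 and 0.51 in limma) and the dim second one of HSD11B2 (-0.56, adjusted p = 0.54) were under 0.05 before adjustment, and all 4 NR3C1 probes were higher in BA. The differences, BA minus CH, were -0.01 for THRA (95% interval from -0.16 to 0.13), 0.12 for NR3C1 (-0.03 to 0.26), -0.35 for DIO2 (-0.93 to 0.22), -0.16 for HSD11B1 (-0.77 to 0.44), -0.29 for HSD11B2 (-0.80 to 0.22) and -0.07 for FKBP5 (-0.35 to 0.21). The intervals were narrow for the receptors and FKBP5 and wider for DIO2 and the cortisol-converting enzymes.

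**Figure D3:**
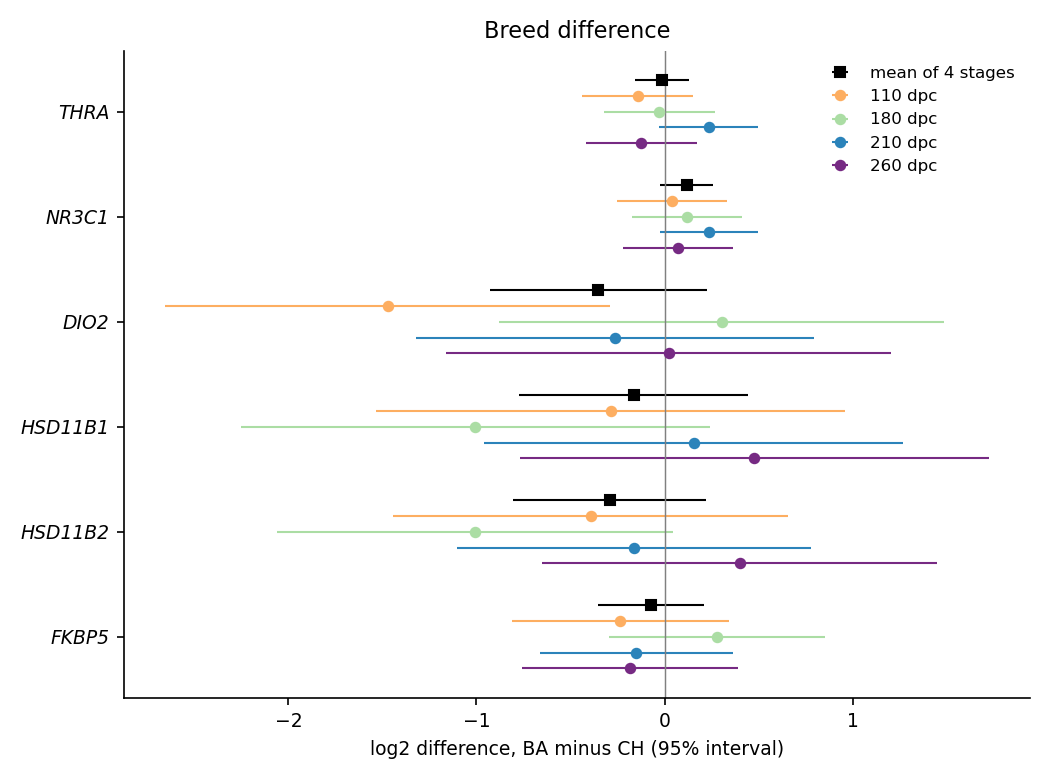
Log2 difference between BA and CH (horizontal axis, BA minus CH) for the brightest probe of 6 genes in the mean of the 4 stages and at each stage, with unadjusted 95% intervals from limma. In the mean of the stages all 6 intervals include 0, and the only single-stage interval that does not is DIO2 at 110 dpc (-1.47, from -2.65 to -0.29), which did not pass after adjustment.

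At single stages, 0.0239% of all genes passed between the breeds at 110, 180 and 260 dpc and 0.00798% at 210 dpc, and no member was among them. On the brightest probes, the only member with an unadjusted p under 0.05 was DIO2 at 110 dpc (-1.47, limma adjusted p = 0.41). There, 2 of 3 BA arrays and 1 of 2 CH arrays were not well above background. Other probes were under 0.05 before adjustment for NR3C1 at 110 dpc (2 probes, 0.32 and 0.44) and at 210 dpc (0.35), for HSD11B2 at 180 dpc (-1.59) and for FKBP5 at 210 dpc (1.46), the last 2 on probes detected on 3 arrays or fewer, and none passed after adjustment in limma. The change from 110 to 260 dpc differed between the breeds for 0.016% of all genes, and for no member (0 at an unadjusted p under 0.05). In the F test over the breed by stage terms, 0% of genes passed and every member probe had an adjusted p of 1.00. On the 6 occasions when BA and CH foetuses of the same stage lay on the same slide, BA was higher in 3 for THRA, 4 for NR3C1, 2 for DIO2, 2 for HSD11B1, 2 for HSD11B2 and 3 for FKBP5.

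Genes that are known to respond to glucocorticoids rose in larger number than they fell. Of 22 measured, 17 were higher at 260 than at 110 dpc, 2 were lower and 3 did not pass, beside 25% higher and 26% lower among all genes, and the list's median difference was 1.15 against 0.07 for all genes. The list was chosen with earlier results of these data known, and FKBP5, a target that fell, is not counted in it. MT2A, a metallothionein that binds zinc, rose by 4.21, TRIM63, the muscle ubiquitin ligase MuRF1, by 3.19, DUSP1, a phosphatase that switches off MAP kinases, by 3.05 and ZBTB16, a transcriptional repressor, by 2.40, with adjusted p from 1.1e-09 to 1.9e-08. KLF9 (1.51), SGK1 (1.30), KLF15 (1.12) and TSC22D3 (0.93), which encodes GILZ, also rose. ANGPTL4, an inhibitor of lipoprotein lipase, fell by 2.38 and CDKN1C, a cell cycle inhibitor, by 1.52.

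These genes did not follow 1 time course. From 110 to 180 dpc 8 of 22 rose and 2 fell, beside 8.6% and 8.14% of all genes, and from 210 to 260 dpc 9 rose and 2 fell, beside 15.2% and 15.3%. DUSP1 rose at every step (1.57, 0.72 and 0.75), ZBTB16 mainly at the last (0.02, 0.65 and 1.73), and TSC22D3 at the last alone (-0.18, 0.17 and 0.95, of which only 0.95 passed). FKBP5, which is a target of the same receptor, was already lower by 180 dpc.

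Partners of the glucocorticoid receptor passed about as often as all genes. Of 12 measured chaperones, cofactors and the mineralocorticoid receptor, 6 rose, 1 fell and 5 did not pass, beside 51% of all genes passing, with a median of 0.21. DNAJB1, an HSP40 chaperone, rose by 1.39, and FKBP4, the co-chaperone that takes the place of FKBP5 when hormone binds, by 1.38 (adjusted p = 7.7e-08), opposite to FKBP5. NR3C2, the mineralocorticoid receptor, which also binds cortisol, rose by 0.77 and PPID by 0.66. HSP90AB1, the constitutive HSP90 chaperone, fell by 0.72, while HSP90AA1 differed by 0.12 (adjusted p = 0.38). The split depended on scaling, with 5 of these genes higher and 4 lower by quantile normalization and 2 higher and 4 lower in the authors' value table.

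**Figure D4:**
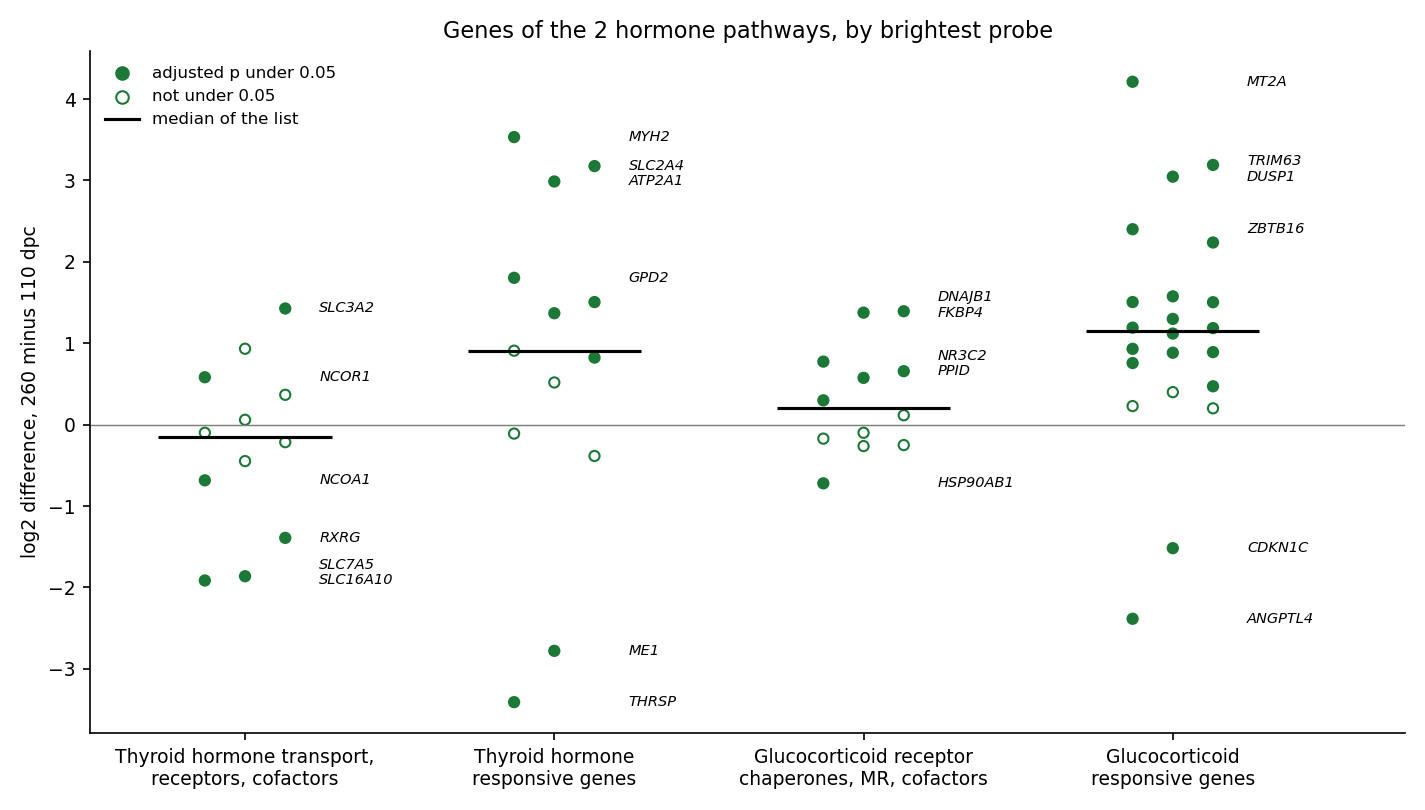
Log2 difference between 260 and 110 dpc in the mean of both breeds (vertical axis) for the genes of 4 pathway lists (horizontal axis), 1 point per gene by its brightest probe, filled where the adjusted p was under 0.05, with a bar at the median of each list. Most of the glucocorticoid responsive genes lie above 0 (median 1.15), those of thyroid hormone transport and receptors lie on both sides (median -0.16), and names are given for up to 4 passing genes in each direction.

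Of 13 genes that are known to respond to thyroid hormone, 7 were higher, 2 lower and 4 did not pass, beside 25% higher and 26% lower among all genes, and their median was 0.91. This list too was chosen with earlier results of these data known. MYH2, the fast IIa myosin, rose by 3.53, SLC2A4, the insulin-regulated glucose transporter GLUT4, by 3.18, ATP2A1, the calcium pump of fast fibres, by 2.99 and GPD2, the mitochondrial glycerophosphate dehydrogenase, by 1.80. THRSP, the thyroid hormone responsive Spot 14 protein of lipogenic tissue, fell by 3.41 (adjusted p = 5.9e-05) and ME1, the malic enzyme of fatty acid synthesis, by 2.78 (adjusted p = 2.7e-09). ME1 fell early, by 2.28 from 110 to 180 dpc, as FKBP5 did. BCL3, among those that did not pass, was not well above background on any of the 21 arrays, and KLF9 stands in both responsive lists.

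Of 12 genes of thyroid hormone transport, receptors and cofactors, 2 rose, 4 fell and 6 did not pass, a share close to the 51% of all genes that passed. SLC3A2, the heavy chain of the large neutral amino acid transporter, rose by 1.43 and NCOR1, a corepressor of unliganded receptors, by 0.58. SLC7A5, the light chain of the same transporter, fell by 1.86, SLC16A10, a transporter of aromatic amino acids and T3, by 1.91, RXRG, a retinoid X receptor, by 1.39 and NCOA1, a coactivator, by 0.68. The hepatic deiodinase DIO1 was well above background on 1 array. THRB, the other thyroid hormone receptor, had no named probe and was not analysed here. No gene of the 4 lists passed in the mean breed difference.

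The cell types of the muscle moved over the same stages. The summed intensity of the 8 muscle markers, in units of the array's 75th percentile, was 711 to 895 at 110 dpc and 1829 to 2171 at 260 dpc, with CKM, the muscle creatine kinase, higher by 3.11 and MYH3, the embryonic myosin, lower by 0.83. That of 8 connective tissue markers was 294.6 to 580 at 110 dpc and 185 to 303.5 at 260 dpc, and 5 of them fell. That of 7 erythroid markers was 64.7 to 125 and then 23.5 to 42.8, with 4 lower, and that of 8 leukocyte markers 6.41 to 14.2 and then 5.03 to 6.83, with 3 higher and 3 lower. Endothelial markers peaked in between, at 30.9 to 41.3 at 110 dpc, 58.6 to 75.2 at 180 dpc and 45.1 to 60.2 at 260 dpc, with 6 of 8 higher at 180 than at 110 dpc, as were THRA and HSD11B2. Schwann cell markers summed to at most 14.5 at 110 dpc and to 17.5 to 30.6 at 260 dpc, with 4 of 6 higher. The part of these cell types in the results of the members and of the pathway lists was not tested.

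Over the 21 arrays, the named genes most like each member were listed by Pearson correlation with its brightest probe, among 9218 genes well above background on every array. These arrays share their stages, so any gene with a like time course scores high, and the values are descriptive. THRA was most like DDIT4L (r = 0.95), CACNG6 (0.94) and PLP2 (0.94). NR3C1 was most like RORA (0.83), RASGRP3 (0.82) and SORL1 (0.81).

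HSD11B1 was most like TRIP10 (r = 0.96), CYSTM1 (0.95) and CTNNAL1 (0.95), and HSD11B2 was most like SPON2 (0.81), SHOX2 (0.79) and LASP1 (0.79). DIO2 was most like NT5C1A (r = 0.89), IFITM5 (0.87) and CCNDBP1 (0.85), with dim arrays at 110 dpc in its own values. FKBP5 was most like SNRPA (r = 0.93), USP14 (0.93) and ME1 (0.93), which is also on the list of thyroid hormone responsive genes. The correlations of DIO3 are not given, since its values were near background on 20 of 21 arrays.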

How the data were processed

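Muscle RNA of 21 foetuses was hybridized to Agilent 4x44K bovine arrays (Cy3), and the authors extracted the deposited intensity values with Agilent Feature Extraction 10.7. The software's background-corrected signal lay 50.6 to 59.5 units below the median spot signal (medians per array). For probes well above background, the processed intensity was 0.976 to 0.998 of that corrected signal (medians per array). A background had thus been taken off, while the methods state no background subtraction. A further table that the authors deposited holds log2 values, unscaled between arrays and empty where a probe was not well above background, of which 99.98% lay within 0.01 of the log2 scanner intensity. It served as an alternative.

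Control spots and 258 outlier spot values were left out and spots of a probe were averaged. The log2 intensity was reduced by the array's 75th percentile and 2.69 was added. Probes were named through their RefSeq accessions and the annotation of ARS-UCD2.0 (26628 of 43653 probes). The array was designed on another assembly and no probe sequence was used here, so positions and sequences are not given. A gene is represented by its brightest probe over all arrays. Bounds set each dim array at the higher of its lowest signal among probes well above background and the probe's own. A probe can read above that lowest signal and still not be called well above background. A group mean for each breed and stage was fitted with limma 3.58.1 in R 4.3.3 (13 residual and 2.12 prior degrees of freedom) over all 43653 probes without a filter, and probes passed at a two-sided Benjamini-Hochberg adjusted p under 0.05. Replicates are separate foetuses. The code was tested on simulated data.

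The members, the lists of pathway and marker genes and the tests were chosen with earlier results of these data known. The text names every member, up to 4 passing genes of each pathway list in each direction between 110 and 260 dpc, the 3 genes most like each member, and marker genes. KLF9, SGK1, KLF15, TSC22D3, HSP90AA1 and DIO1 fall outside this rule and were named after their values were seen. The alternatives comprised scaling by quantiles, by the median or by a percentile of detected probes, normexp correction of the background with an offset of 50, the authors' table, 2 filters, sex as a covariate, female foetuses alone, blocks for slide, scan day, replicate number and sire, the second scan day alone, a trended and robust variance, other probes of a gene, and each array left out in turn. A fit with values not well above background raised to the array's detection level was added after seeing the data. Some listed genes are not reported by name here. Genes with no named probe (among them THRB, SLCO1C1, RXRA, NCOA3, SECISBP2, CPT1A, NCOA2, H6PD, SERPINA6, PER1, FOXO1 and ADIPOQ) were not analysed here.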

Additional observations from a re-analysis of the deposited data

Results flagged for a closer look

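Single arrays were compared with the others of their stage for the 6 genes other than DIO3, over both breeds, in 24 sets of 5 or 6 arrays. Dixon's ratio, the gap of the farthest array to its neighbour over the whole range, was past its 95% critical value in 2 sets, and chance alone passes about 1 in 20. NR3C1 at 110 dpc was 5.94 in BA replicate 3 and 5.82 to 5.84 on the other 4 arrays (ratio 0.883), a narrow range in all. HSD11B1 at 210 dpc was -1.86 in CH replicate 2 and -0.68 to -0.07 on the other 5 arrays (ratio 0.657). The second HSD11B1 probe was also lowest there, at -2.38, and not well above background.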

How the results depend on the processing

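The calls of HSD11B1 and FKBP5 between 110 and 260 dpc held in all 36 and 39 alternatives, with differences of 1.81 to 5.22 and -2.20 to -1.57. DIO2 kept its call in 34 of 35 alternatives, THRA in 36 of 38 and NR3C1 in 35 of 40. NR3C1 did not pass in female foetuses alone (0.35), on the second scan day alone (0.38), by quantile normalization (0.07), in the authors' table or by the probe at 0.16. No breed comparison called a member in any setting. The authors' table and the stricter filter held 3 of the 7 genes, THRA, NR3C1 and FKBP5. Probes on 3 arrays or fewer gave no alternative value. The arrays of the other scan days could not be fitted alone. A lone array in a group is assumed to vary like the other groups. Signal over background limits DIO2, DIO3, HSD11B1 before 210 dpc and HSD11B2.

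Replicate numbers did not pair the foetuses: arrays centred on their group had a median correlation of -0.01 over 66 pairs with the same number and 0.01 over 126 pairs with other numbers. With a replicate block 1 member gene against 0 passed from 210 to 260 dpc (HSD11B1, 1.03). DIO2 passed from 110 to 180 dpc, and no other member call changed. There DIO2 differed by 0.074 between 210 and 260 dpc.

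Counts of member genes passing changed as follows by setting, omitting shifts of 1 from 3 or more. From 110 to 260 dpc 5 of 7 passed, against 3 of 7 by quantile normalization, 3 of 3 with the stricter filter and 1 of 3 in the authors' table. In BA 4 of 7 and in CH 3 of 7 passed, against 1 of 3 each in the authors' table. From 110 to 180 dpc 4 passed, against 1 in the authors' table or on the second scan day alone. From 180 to 210 dpc 1 passed, against 0 in the authors' table, with the stricter filter, in females alone, with slide as a block and on the second scan day. From 210 to 260 dpc 0 passed, against 1 with normexp correction, 2 by quantile normalization, 1 in the authors' table, 1 in females alone and 1 with dim arrays at the detection level (HSD11B1, 0.96). Leaving out single arrays gave counts of 5 from 110 to 260 dpc, 3 to 5 in BA, 3 in CH, 2 to 4 from 110 to 180 dpc, 0 to 2 from 180 to 210 dpc and 0 to 1 from 210 to 260 dpc. The lowest count from 110 to 180 dpc came without BA 180 replicate 1 or CH 110 replicate 2, those from 180 to 210 dpc without BA 180 replicate 2 (0) and CH 260 replicate 1 (2), those from 210 to 260 dpc without BA 260 replicate 1 or CH 260 replicate 1, and those in BA without BA 260 replicate 2 (3) and BA 210 replicate 3 (5).

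Other differences that changed sign were not past the threshold on the main scale, apart from NR3C1 between 110 and 260 dpc in the authors' table (-0.063). From 210 to 260 dpc DIO2 became 0.17 with normexp correction, 0.08 by quantile normalization, 0.027 by median scaling, 0.05 with sex as a covariate, 0.25 in females alone and -0.28 to 0.15 with arrays left out. Over the same step THRA became -0.30 by quantile normalization (adjusted p = 0.011) and -0.31 in the authors' table, FKBP5 -0.011 in the authors' table and HSD11B2 0.02 on the second scan day. From 180 to 210 dpc THRA became -0.024 by quantile normalization and 0.00 in females alone, and NR3C1 -0.11 by another probe. HSD11B2 between 110 and 260 dpc was -0.18 to 0.59 with arrays left out. The breed difference of THRA became 0.055 by quantile normalization, 0.003 with detected probes, 0.039 in the authors' table, 0.015 in females alone, 0.008 with slide as a block, 0.022 by its other probe and -0.038 to 0.01 with arrays left out, that of FKBP5 0.16 by another probe, and that of HSD11B1 0.041 with dim arrays at the detection level. The cause of these changes was not tested.

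Over all probes, 19167 passed between 110 and 260 dpc, and 12751 to 23549 in the alternatives. Between the breeds 32 passed in the mean of the stages, and 1 to 93 in the alternatives. Of the glucocorticoid responsive genes, 12 to 18 rose and 1 to 2 fell, and of the thyroid hormone responsive genes 6 to 8 rose and 0 to 2 fell. Of the chaperones and cofactors 2 to 6 rose and 0 to 4 fell, and of the transport and receptor genes 1 to 3 rose and 3 to 6 fell.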
